A study of Mus musculus with 16 samples.

Results

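The 10 genes described here encode factors and markers of the epithelial-mesenchymal transition, and they were followed through the formation of blood cells from mouse embryonic stem (ES) cells with and without functional Sp1. They are Snai1, Snai2, Twist1, Twist2, Zeb1, Zeb2, Prrx1, Vim, Cdh2 and Tgfb1, taken as a named list, and all 10 are among the 37149 genes tested. Of these 37149, 20118 have a gene symbol, and each other target name was counted as a gene of its own. Shares of all genes below are over all 37149 unless stated. Each gene is represented by its brightest probe, that is, the probe with the highest mean over all arrays among those whose target accession maps to the gene. RNA from 4 populations was hybridised to 16 one-color Agilent arrays, with 2 arrays for each of the 8 combinations of population and genotype. Flk1+ cells are mesodermal cells purified from embryoid bodies with an antibody to Flk1 (the product of Kdr), and they were replated in a culture (blast culture) in which they become blood. HE1 is the first stage of the hemogenic endothelium, sorted as KIT+ Tie2+ CD41- cells, HE2 is its second stage, sorted as KIT+ Tie2+ CD41+ cells, and the progenitors are KIT+ Tie2- CD41+ hematopoietic cells. Per the supplementary methods, HE1, HE2 and progenitors were all sorted at day 2 of blast culture, from floating and adherent cells combined. A rise or fall between them is thus a difference between sorted fractions of the same culture day, not between time points. Sp1+/+ cells are wild-type E14 ES cells, and Sp1-/- cells carry a knockout of Sp1 on both alleles and make a truncated protein that lacks the DNA-binding domain, so they are not cells without any Sp1 product. The labels give the strain of all samples as C57BL/6. Whether this holds for the E14 line and the mutant line was not determined here. All Sp1-/- samples come from 1 mutant ES line, and the E14 line is the only wild-type line. In these arrays an effect of the mutation therefore cannot be told apart from a difference between these lines. The paper reports that Sp1 cDNA put back into the mutant clone rescued macrophage development and colony formation, but no rescue cells are among the samples.

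The epithelial-mesenchymal transition is the process in which cells lose junctions and polarity and become migratory. Transcription factors of the Snail (Snai1, Snai2), Twist (Twist1, Twist2) and Zeb (Zeb1, Zeb2) families drive it, largely by repressing epithelial genes such as Cdh1 through E-box sequences, and TGF-beta ligands such as Tgfb1 are among its best known inducers. In the embryo the same factors act when mesoderm forms and when endothelial cells change their identity, and the release of round blood cells from a flat endothelium likewise involves the loss of cell contacts.

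Facts on the arrays that touch every value are as follows. Values are log2 intensities as the authors deposited them, so a difference of 1 is a 2-fold change, and probes of different genes are not compared with one another. The share of spots well above background lay between 67.0% and 77.1% per array, and no spot was saturated. Replicate arrays correlated at 0.990 to 0.997 across probes, and the largest gap between replicate arrays of any of the 10 genes was 1.39 (Snai2 in Sp1+/+ HE2). Each genotype was hybridised on a slide of its own, so genotype and slide cannot be told apart, whereas changes between populations within a genotype lie within a slide. A gene was called where its groups differed by 2-fold or more and the unadjusted p did not exceed 0.01 in a limma model of all 16 arrays, and the Benjamini-Hochberg adjusted p over all genes is given beside it. The labels name the 2 arrays of a group as replicates. The series text calls them independent biological replicates while a supplementary legend speaks of technical ones, so it is open which spread the SD and p-values measure.

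The targeted gene was lower on every Sp1-/- array. Sp1 ranged from 12.14 to 12.56 over the 8 Sp1+/+ arrays and from 9.03 to 10.29 over the 8 Sp1-/- arrays, and the log2 difference lay between -2.27 in Flk1+ cells and -3.28 in HE1. Where the probe lies relative to the deleted part of the gene was not determined here. Tek and Itga2b moved with the gates used for sorting. Tek, the gene of Tie2, was at 12.34 and 12.50 in Sp1+/+ HE1 and at 9.62 and 8.40 in Sp1+/+ progenitors, and at 11.89 and 11.65 in Sp1-/- HE1 against 7.62 and 8.32 in Sp1-/- progenitors. Itga2b, which encodes CD41, had a mean of 10.60 ± 0.01 (SD, n = 2) in Sp1+/+ HE1 and 12.08 ± 0.18 in HE2. Kit was at 12.31 and 11.59 in Sp1+/+ HE1, and Kdr lay between 13.56 and 15.37 on the 16 arrays. Itga2b was well above background in HE1 too, which was sorted as CD41-.

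The regulatory sequence of these genes is relevant because Sp1 binds GC boxes, whose core is GGGCGG on one strand and CCGCCC on the other. RefSeq promoters of the mouse assembly GRCm38.p6 were at hand for 7 of the 10 genes, and the 250 bases upstream of the start of transcription were read for both spellings of the GC box and for the E-box CAGGTG or CACCTG. The 5 promoters below are shown because they span the range of GC boxes and because the genes behave differently after loss of Sp1 DNA binding. Each is printed 5′ to 3′ on the strand of the gene, with GC boxes in capitals.
Snai1 (chr2:167537945-167538194, + strand): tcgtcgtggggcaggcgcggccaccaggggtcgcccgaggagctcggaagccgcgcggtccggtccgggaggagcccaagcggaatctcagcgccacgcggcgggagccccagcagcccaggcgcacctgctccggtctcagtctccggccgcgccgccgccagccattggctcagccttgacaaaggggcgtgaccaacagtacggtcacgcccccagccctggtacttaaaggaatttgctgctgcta
Twist1 (chr12:33957421-33957670, + strand): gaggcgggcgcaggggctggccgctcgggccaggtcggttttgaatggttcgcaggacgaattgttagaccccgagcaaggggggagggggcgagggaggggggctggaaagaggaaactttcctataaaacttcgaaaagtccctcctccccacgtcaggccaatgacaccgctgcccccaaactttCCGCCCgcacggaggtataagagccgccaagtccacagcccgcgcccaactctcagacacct
Twist2 (chr1:91801211-91801460, + strand): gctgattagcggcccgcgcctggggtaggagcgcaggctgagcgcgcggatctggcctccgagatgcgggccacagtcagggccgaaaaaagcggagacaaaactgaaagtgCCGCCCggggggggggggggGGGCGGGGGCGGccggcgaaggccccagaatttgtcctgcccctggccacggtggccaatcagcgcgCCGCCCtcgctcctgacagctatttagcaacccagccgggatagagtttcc
Vim (chr2:13574061-13574310, + strand): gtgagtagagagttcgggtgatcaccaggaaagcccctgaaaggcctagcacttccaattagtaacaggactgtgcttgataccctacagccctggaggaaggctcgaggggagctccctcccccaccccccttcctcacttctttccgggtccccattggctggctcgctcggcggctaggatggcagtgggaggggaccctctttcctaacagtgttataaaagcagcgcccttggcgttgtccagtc
Tgfb1 (chr7:25686752-25687001, + strand): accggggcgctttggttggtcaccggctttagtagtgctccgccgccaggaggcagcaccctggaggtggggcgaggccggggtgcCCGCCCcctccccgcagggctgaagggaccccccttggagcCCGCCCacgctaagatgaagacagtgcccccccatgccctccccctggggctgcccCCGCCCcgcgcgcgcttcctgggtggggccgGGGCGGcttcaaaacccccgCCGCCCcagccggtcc
Over all 32817 promoters of the same length, 32.7% held a GC box and 17.2% held the E-box. The Tgfb1 window held 5 GC boxes, Twist2 held 4 and Twist1 held 1, whereas Snai1, Vim and Prrx1 held none. Of the 4 alternative Zeb2 promoters, 3 held 1 GC box and 1 held none. The E-box was found only in the Snai1 window among these 7 genes, at 1 position. Set beside the values given later, Twist2 with 4 GC boxes, Twist1 with 1, and Snai1 and Vim with none were called lower in Sp1-/- progenitors. Tgfb1 with 5 GC boxes differed there by 0.02 on the log2 scale and was not called, and neither were Zeb2 and Prrx1. Snai2, Zeb1 and Cdh2 had no promoter to read. A link between GC boxes and these differences was not tested. A match to these letters is a description of the window and not a binding site.

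**Figure D1:**
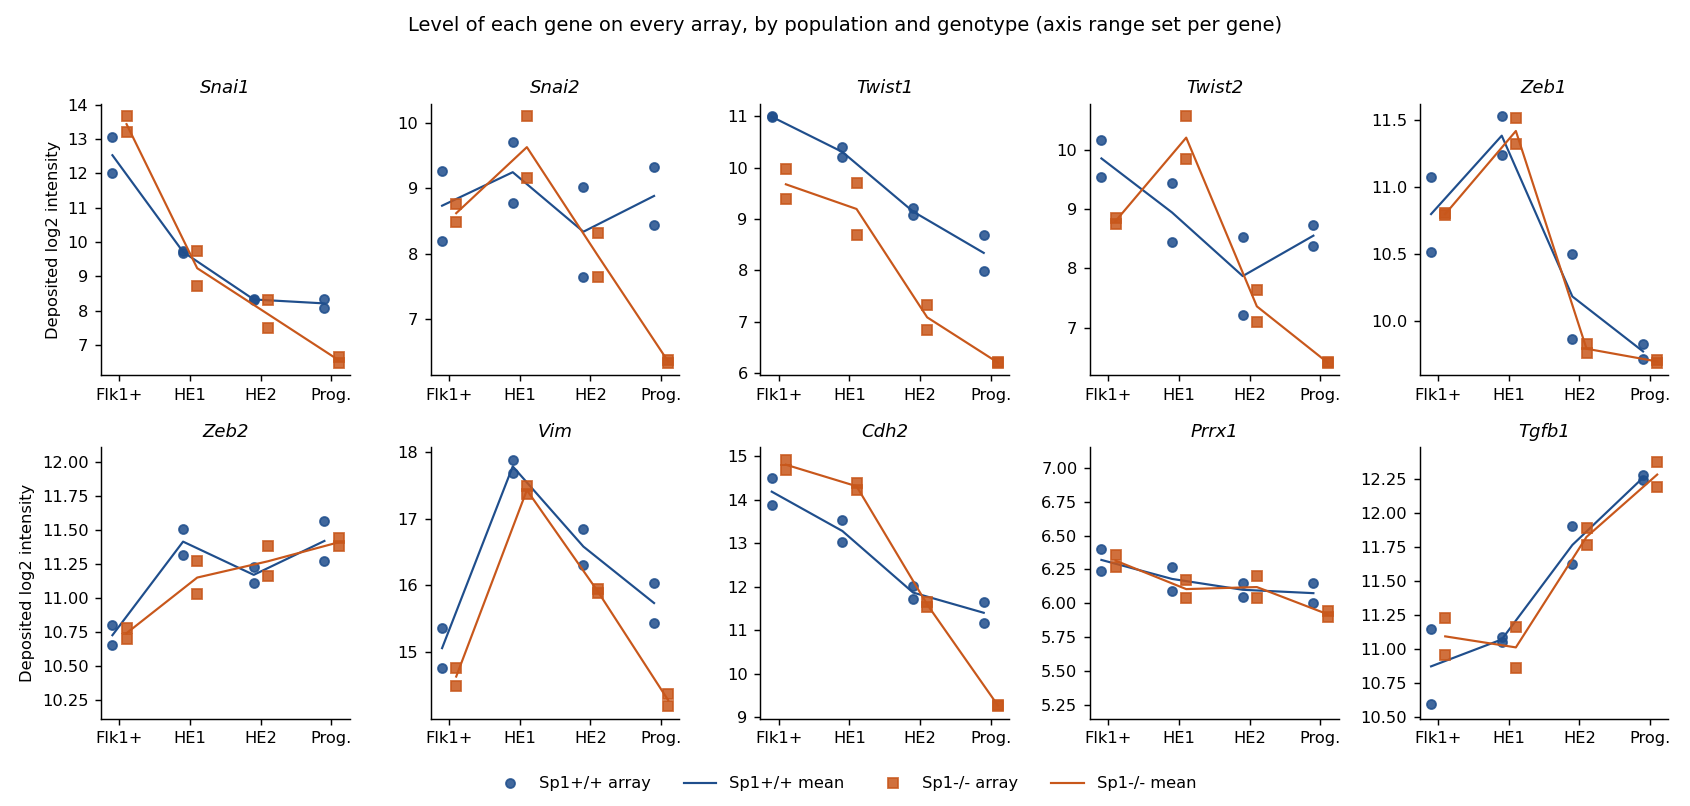
Deposited log2 intensity (vertical axis, range set per gene) of the 10 genes in Flk1+ cells, HE1, HE2 and progenitors (horizontal axis). Each point is 1 array, Sp1+/+ as circles and Sp1-/- as squares, and lines join the means of 2 arrays. Snai1 is highest in Flk1+ cells, Vim peaks in HE1, Tgfb1 is highest in progenitors, and in progenitors the Sp1-/- arrays of Snai1, Snai2, Twist1, Twist2, Vim and Cdh2 lie below both Sp1+/+ arrays.

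The first question was how the genes behave in wild-type cells on the way from mesoderm to blood. From Flk1+ cells to Sp1+/+ HE1, Snai1 fell and Vim rose, and the other 8 genes were not called. The 10 genes then split at the endothelial to hematopoietic transition: from HE1 to progenitors Snai1, Twist1, Zeb1, Vim and Cdh2 fell, Tgfb1 rose, and Snai2, Twist2, Zeb2 and Prrx1 were not called. Among all genes, 4% were called lower and 2.63% higher between HE1 and progenitors of Sp1+/+ cells, and 3.9% lower and 4.66% higher between Flk1+ cells and HE1. The median log2 difference of the 10 genes from HE1 to progenitors was -0.94 against 0.01 over all genes.

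Snai1 encodes a zinc finger repressor that is needed for gastrulating mesoderm to leave the epithelium. Its level was 13.05 and 12 in Sp1+/+ Flk1+ cells, then 9.73 and 9.69 in HE1, with 8.34 and 8.31 for HE2 and 8.34 and 8.08 for progenitors. Every array of a population lay below every array of the one before it down to HE2, and HE2 and progenitors overlapped. The fall to HE1 was 7.04-fold (log2 difference -2.81 ± 0.38 SE, adjusted p = 0.000231), and a further 2.61-fold separated HE1 and HE2 (-1.38, adjusted p = 0.0424). The second fall lost its call when any of the 4 arrays was left out, with unadjusted p between 0.0177 and 0.0204. Over the whole span from HE1 to progenitors Snai1 fell 2.83-fold (-1.50, adjusted p = 0.0170), a call lost without either HE1 array (unadjusted p = 0.0137 and 0.0119) or the second progenitor array (unadjusted p = 0.0191).

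Snai2, the Snail family member best known from neural crest, had another pattern than Snai1. In Sp1+/+ cells it was at 8.20 and 9.27 in Flk1+ cells and at 9.72 and 8.78 in HE1, whereas HE2 had 9.03 and 7.64 and progenitors had 9.33 and 8.44. All 4 populations overlapped, and neighbouring populations did not differ beyond the spread of their arrays.

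Twist1 and Twist2 encode related basic helix-loop-helix factors of mesenchymal cells. Twist1 was at 11 and 10.98 in Flk1+ cells and at 10.41 and 10.20 in HE1, whereas HE2 had 9.22 and 9.07 and progenitors had 8.69 and 7.99. The order of the populations held on every array, and the fall from HE1 to progenitors was 3.90-fold (-1.96 ± 0.32, adjusted p = 0.00122). The step from HE1 to HE2 (-1.16, adjusted p = 0.0438) lost its call when any of its 4 arrays was left out, with unadjusted p between 0.0122 and 0.0290. Twist2 was at 9.54 and 10.16, 9.44 and 8.44, 8.53 and 7.21, and 8.73 and 8.37 in the same order, with HE1 and HE2 overlapping and no step called.

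Zeb1 and Zeb2 encode zinc finger and homeodomain repressors of Cdh1, and their levels went in different ways. Zeb1 was at 10.52 and 11.08 in Flk1+ cells and at 11.24 and 11.53 in HE1, whereas HE2 had 9.87 and 10.50 and progenitors had 9.83 and 9.72. It was highest in HE1, and HE1 exceeded progenitors by 3.05-fold (-1.61 ± 0.21, adjusted p = 0.000251). Without the first HE2 array the step from HE1 to HE2 was -0.88 instead of -1.20 and under 2-fold. Zeb2, which is also required in adult blood formation, was at 10.65 and 10.80 in Flk1+ cells and at 11.51 and 11.32 in HE1, whereas HE2 had 11.23 and 11.11 and progenitors had 11.27 and 11.57. Its rise of 1.61-fold from Flk1+ cells to HE1 (0.69 ± 0.13, adjusted p = 0.0022) was larger than the spread between replicates but under 2-fold, and HE1 and progenitors differed by 0.005 with overlapping arrays.

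Vim and Cdh2 are products used as mesenchymal markers, the intermediate filament protein vimentin and the adhesion protein N-cadherin. Vim was at 14.76 and 15.36 in Flk1+ cells and at 17.88 and 17.68 in HE1, whereas HE2 had 16.31 and 16.85 and progenitors had 16.04 and 15.43. It rose 6.59-fold into HE1 (adjusted p = 1.12e-05) and was 4.13-fold lower in progenitors than in HE1 (-2.04 ± 0.24, adjusted p = 0.000139). The step from HE1 to HE2 was -1.20, and it was under 2-fold without the first HE2 array (-0.93) and when each array's processed scanner signal was divided by its 75th percentile (-0.96). Cdh2 was at 14.50 and 13.87, 13.02 and 13.54, 11.72 and 12.01, and 11.64 and 11.16 in the same order of populations. Each population lay below the one before it on all arrays, and progenitors were 3.68-fold below HE1 (-1.88 ± 0.23, adjusted p = 0.000181).

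Tgfb1 encodes a secreted ligand, and it was the only one of the 10 genes that was called higher in progenitors than in HE1. The values were 11.15 and 10.60 in Flk1+ cells and 11.05 and 11.09 in HE1, followed by 11.91 and 11.63 for HE2 and 12.25 and 12.28 for progenitors. The rise from HE1 to progenitors was 2.29-fold (1.19 ± 0.18, adjusted p = 0.000618), with no overlap from HE1 onwards. Prrx1, a homeobox gene of limb and craniofacial mesenchyme, lay between 5.90 and 6.40 on all 16 arrays and was well above background on 5 of them, 2 of these being the Sp1-/- Flk1+ arrays. It was not well above background on either array of HE2 or progenitors in both genotypes, and no change of it was called in any comparison.

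The second question was what loss of Sp1 DNA binding does to these genes in each population. Of the 10 genes, 6 were called in progenitors, all lower in Sp1-/- cells, against 1 in Flk1+ cells, 2 in HE1 and 1 in HE2. Among all genes 0.867% were called lower in Flk1+ cells, HE1 had 1.13% lower and 0.969% higher, HE2 had 1.17% lower, and progenitors had 2.6% lower and 1.5% higher. In progenitors the median log2 difference of the 10 genes was -1.55 against 0.02 over all genes. When only genes well above background on both arrays of a group were tested, the share of all genes called lower in progenitors was 3.17%.

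**Figure D2:**
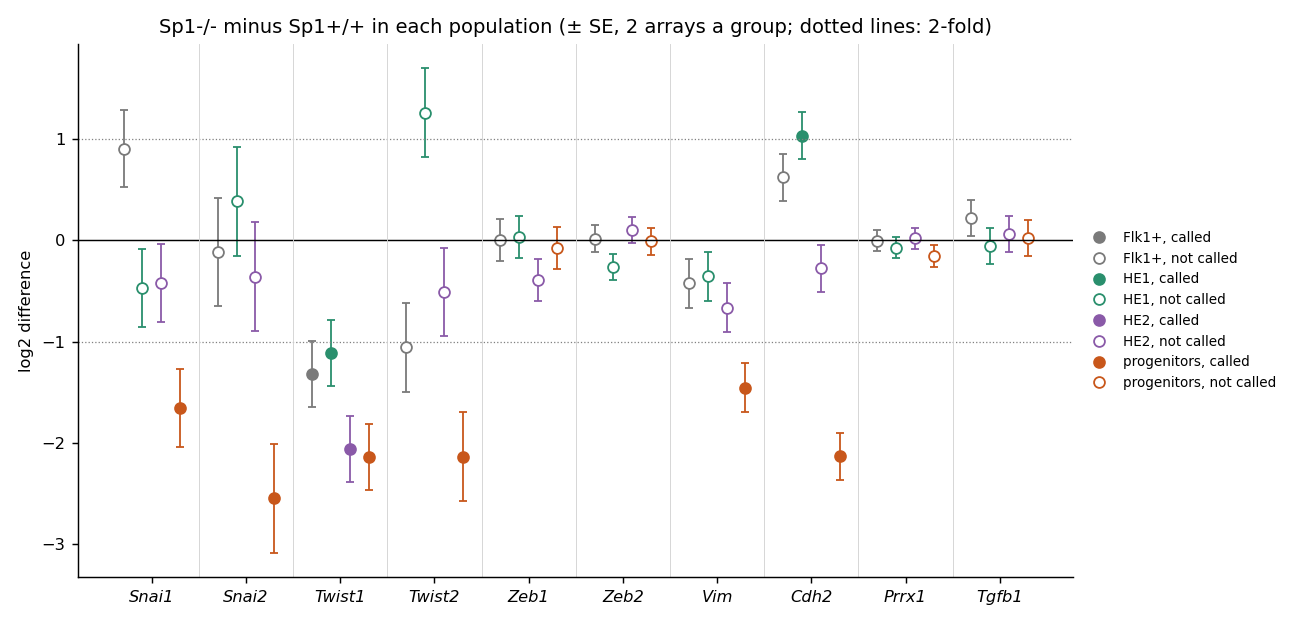
log2 difference Sp1-/- minus Sp1+/+ (vertical axis) of each of the 10 genes (horizontal axis) in Flk1+ cells, HE1, HE2 and progenitors, as points with the SE of the fit as bars, from 2 arrays a group. Filled points were called and dotted lines mark a 2-fold change. Twist1 lies below -1 in all 4 populations, 6 genes lie below -1 in progenitors, and Zeb1, Zeb2, Prrx1 and Tgfb1 differ by at most 0.39 in either direction.

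Twist1 was the one gene called lower in all 4 populations. In Flk1+ cells it was at 9.97 and 9.38 in Sp1-/- against 11 and 10.98 in Sp1+/+ cells, a 2.49-fold difference (-1.31 ± 0.32, adjusted p = 0.0344). In HE1 the values were 9.71 and 8.68 against 10.41 and 10.20 (-1.11, adjusted p = 0.0551). The groups did not overlap in either population, but these differences are the least secure. In Flk1+ cells the unadjusted p rose to 0.0109 and 0.0101 without either Sp1+/+ array and to 0.0244 without the second Sp1-/- array (-1.02). In HE1 the call ended without the first or second Sp1+/+ array (unadjusted p = 0.0357 and 0.0150), without the second Sp1-/- array (-0.59, unadjusted p = 0.0780), with the 75th percentile scaling (-1.14, unadjusted p = 0.0157) and in a fit of only the arrays compared (unadjusted p = 0.0320).

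In HE2 Twist1 was at 7.33 and 6.84 in Sp1-/- against 9.22 and 9.07 in Sp1+/+ cells, 4.17-fold lower (-2.06 ± 0.32, adjusted p = 0.00365). In progenitors it was at 6.21 and 6.2 against 8.69 and 7.99, 4.39-fold lower (-2.13 ± 0.32, adjusted p = 0.00134), and the second Sp1-/- array was not well above background. Both calls held without any single array. The Sp1 effect on Twist1 was not called different between successive populations. The difference between effects was 0.20 from Flk1+ cells to HE1 (adjusted p = 0.911), -0.95 from HE1 to HE2 (adjusted p = 0.646) and -0.08 from HE2 to progenitors (adjusted p = 0.976). The last of these is limited by the low end of the scale, where the Sp1-/- progenitor values lie, and it was -1.41 (unadjusted p = 0.0295) when the processed signal was divided by the 75th percentile.

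Twist2 behaved unlike Twist1 at the early stages. In Flk1+ cells it was at 8.74 and 8.85 in Sp1-/- against 9.54 and 10.16 in Sp1+/+ cells (-1.05 ± 0.44, adjusted p = 0.201), and in HE1 it was at 10.56 and 9.84 against 9.44 and 8.44 (1.26 ± 0.44, adjusted p = 0.0994). The groups did not overlap in either population and the order was opposite, yet neither difference was called in the fit of all arrays. In a fit of only the arrays compared the Flk1+ difference was called (unadjusted p = 0.00572), and with the replicate number as a block the HE1 difference was (unadjusted p = 0.00777). The difference between these effects was 2.31 ± 0.62 (unadjusted p = 0.00326, adjusted p = 0.124), a test by which 0.711% of all genes were called higher. In HE2 the values overlapped, at 7.63 and 7.09 against 8.53 and 7.21. In progenitors Twist2 was at 6.42 and 6.41 against 8.73 and 8.37, 4.39-fold lower (-2.13 ± 0.44, adjusted p = 0.00797).

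Neither Snail gene was called before the progenitor stage. Snai1 was at 13.66 and 13.20 in Sp1-/- Flk1+ cells, above both Sp1+/+ arrays (0.91 ± 0.38, adjusted p = 0.214), and at 9.74 and 8.73 in HE1 and 8.32 and 7.48 in HE2, where the genotypes overlapped. In progenitors it was at 6.48 and 6.64 against 8.34 and 8.08, 3.14-fold lower (-1.65 ± 0.38, adjusted p = 0.0158). This call ended without the first Sp1+/+ array (-1.52, unadjusted p = 0.0114) or the first Sp1-/- array (-1.57, unadjusted p = 0.0101). In Sp1-/- cells Snai2 was at 8.76 and 8.48 in Flk1+ cells, 10.11 and 9.16 in HE1, and HE2 had 8.31 and 7.64, overlapping with Sp1+/+ cells each time. In progenitors it was at 6.36 and 6.32 against 9.33 and 8.44, 5.84-fold lower (-2.54 ± 0.54, adjusted p = 0.00931).

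The mesenchymal products Vim and Cdh2 were lower in Sp1-/- progenitors too. Vim was at 14.19 and 14.37 against 16.04 and 15.43, 2.74-fold lower (-1.45 ± 0.24, adjusted p = 0.00238). In the earlier populations its Sp1-/- values were 14.50 and 14.77 in Flk1+ cells, 17.48 and 17.37 in HE1, and HE2 had 15.95 and 15.88, with differences of -0.42, -0.35 and -0.66 that were not called. Cdh2 changed direction. It was at 14.92 and 14.69 in Sp1-/- Flk1+ cells (0.62 ± 0.23, adjusted p = 0.152), and at 14.23 and 14.39 against 13.02 and 13.54 in HE1, 2.04-fold higher (1.03 ± 0.23, adjusted p = 0.0198). In HE2 the values were 11.65 and 11.53 (-0.27, adjusted p = 0.624), and in progenitors they were 9.29 and 9.25 against 11.64 and 11.16, 4.38-fold lower (-2.13 ± 0.23, adjusted p = 0.000158).

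The call of Cdh2 in HE1 ended without the first Sp1+/+ array (0.77, unadjusted p = 0.0147), and without the second Sp1-/- array the difference was under 2-fold (0.95). A second, dimmer Cdh2 probe gave differences of 0.98 in HE1 and -2.0 in progenitors. The Sp1 effect on Cdh2 in HE2 minus that in HE1 was -1.30 (unadjusted p = 0.00216, adjusted p = 0.295), with 0.31% of all genes called lower. The effect in progenitors minus that in HE2 was -1.85 ± 0.33 (adjusted p = 0.0327), with 0.915% of all genes called lower.

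Zeb1, Zeb2, Tgfb1 and Prrx1 were not called in any population. In progenitors Zeb1 was at 9.71 and 9.69 in Sp1-/- against 9.83 and 9.72 in Sp1+/+ cells (-0.07 ± 0.21), Zeb2 was at 11.38 and 11.44 against 11.27 and 11.57 (-0.01 ± 0.13), and Tgfb1 was at 12.38 and 12.20 against 12.25 and 12.28 (0.02 ± 0.18). The largest difference of Zeb1 was in HE2, where it was at 9.76 and 9.83 against 9.87 and 10.50 (-0.39 ± 0.21, adjusted p = 0.373). The other Sp1-/- values of Zeb1 were 10.79 and 10.81 in Flk1+ cells and 11.52 and 11.32 in HE1. A dimmer Zeb2 probe was 0.40 lower in Sp1-/- progenitors where the brightest probe differed by 0.01. Its differences in the other populations were -0.04 in Flk1+ cells, -0.54 in HE1 and 0.125 in HE2. In Sp1-/- cells Zeb2 was at 10.70 and 10.78 in Flk1+ cells, 11.27 and 11.03 in HE1, and HE2 had 11.38 and 11.16, and Tgfb1 in the same order was at 11.23 and 10.95, 10.86 and 11.16, and 11.76 and 11.89. The genotypes overlapped for Tgfb1 in all 4 populations and for Zeb2 in all but HE1, where both Sp1-/- arrays lay below both Sp1+/+ arrays (-0.27 ± 0.13, adjusted p = 0.247). For Zeb1 the Sp1-/- arrays lay just below the Sp1+/+ arrays in HE2 and progenitors.

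For the 4 dim genes the size of the progenitor difference depends on how low intensities were treated. The deposited values level off near 6 for dim probes. When the processed scanner signal was instead used, divided by each array's 75th percentile, the differences were -2.87 for Snai1, -4.70 for Snai2, -4.07 for Twist1 and -3.70 for Twist2, more than 1.5 times the differences above. All 6 genes kept their call and direction under that scaling.

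Other genes that mark mesenchymal and muscle cells were lower in Sp1-/- progenitors as well, and they stand beside the fall of the 6 genes. Of 15 mesenchymal products, 8 were called lower and none higher (median -1.24), with Col1a1 (-4.70), Col1a2 (-3.32), Sparc (-2.69) and Postn (-2.58) changing most. These encode collagen chains and matrix proteins. Of 9 cardiac and smooth muscle markers, 4 were called lower and none higher (median -1.43), namely Cnn1 (-3.96), Acta2 (-3.71), Tagln (-3.67) and Nkx2-5 (-1.43), of which the first 3 encode actin or actin-binding proteins of smooth muscle.

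The summed linear intensity of the cardiac and smooth muscle markers was 136323 to 186315 in Sp1+/+ progenitors and 13014 to 14160 in Sp1-/- progenitors, and that of the mesenchymal products was 146081 to 202965 against 29692 to 42069. In Sp1+/+ progenitors all 9 muscle markers and all 15 mesenchymal products were well above background on both arrays. In Sp1-/- progenitors Myh11, Cdh11, Tnc and Pdgfra were not so on either array, and Myl7 and Thy1 on 1 array only. Acta2 was at 16.81 and 16.24 in Sp1+/+ progenitors, close to the 17.60 and 16.79 of Sp1+/+ HE1, and at 12.85 and 12.77 in Sp1-/- progenitors. The part of these cell types in the fall of the 6 genes was not tested, and in RNA from a whole population fewer cells of a type and less RNA per cell cannot be told apart.

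**Figure D3:**
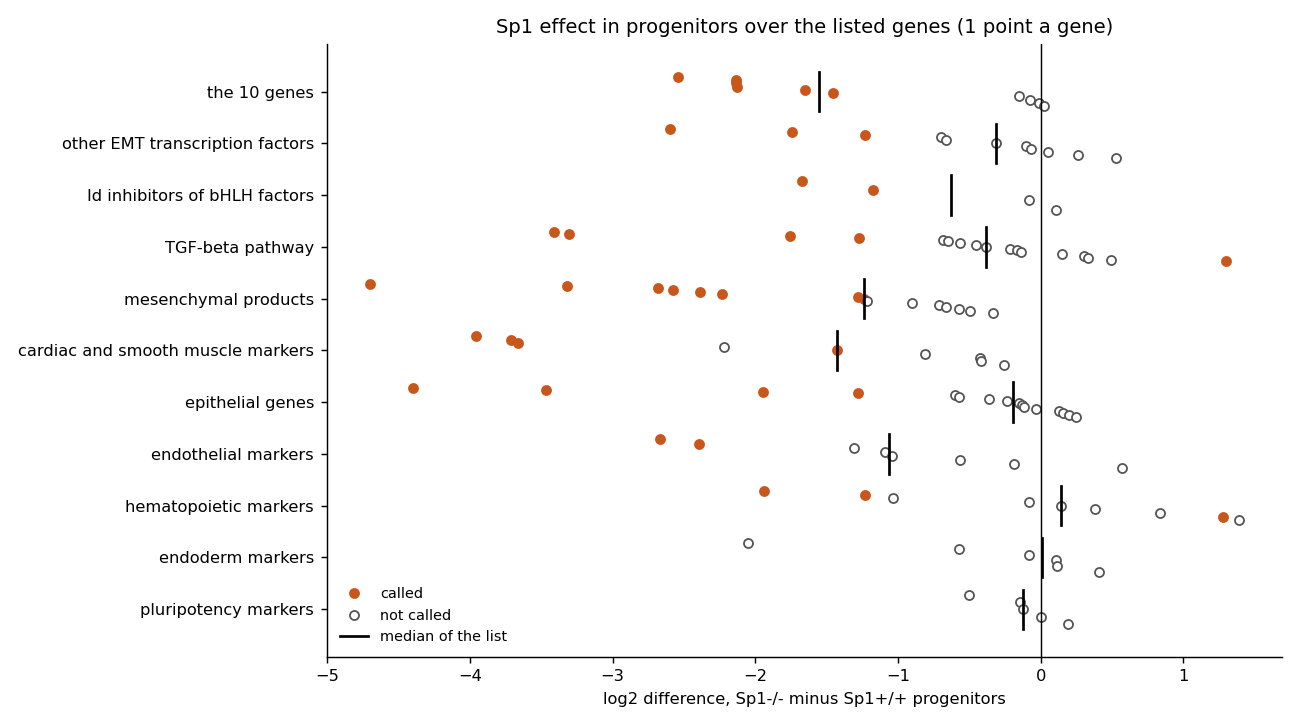
log2 difference Sp1-/- minus Sp1+/+ in progenitors (horizontal axis) for the 10 genes and for the genes of 10 further lists (vertical axis), 1 point a gene. Filled points were called and black bars are list medians. Points called lower reach -4.70 among mesenchymal products (Col1a1), -4.40 among epithelial genes (Krt8) and -3.96 among muscle markers (Cnn1), and the hematopoietic, endoderm and pluripotency lists have medians close to 0.

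Epithelial genes, which Snail and Zeb factors are known to repress, were not called higher in Sp1-/- progenitors. Of 16 such genes 4 were called lower and none higher (median -0.19). Krt8 (-4.40) and Krt18 (-3.46), a keratin pair of simple epithelia, Dsp (-1.94), which encodes a desmosome protein, and Cdh1, which encodes E-cadherin, were the 4. Cdh1 was at 7.34 and 7.36 in Sp1+/+ progenitors and at 6.06 and 6.08 in Sp1-/- progenitors, where neither array was well above background, so it was at least 2.41-fold lower (adjusted p = 0.0305). Such bounds set the brighter group's mean against the higher of the dim probe's own value and the lowest value well above background on each array. In Flk1+ cells 2 of the 16 epithelial genes were called higher and none lower (median 0.05), with 0.775% of all genes called higher. Cdh1 was at 9.85 and 9.43 in Sp1-/- against 7.58 and 7.38 in Sp1+/+ cells (2.16 ± 0.34, adjusted p = 0.00381), and Cldn7, a tight junction gene, was also higher (1.30). In these cells Twist1 was lower, both Snai1 arrays lay above both Sp1+/+ arrays (0.905, not called), and Zeb1 and Zeb2 differed by 0 and 0.015. In the same Sp1-/- Flk1+ cells 2 of 6 endoderm markers were called higher, Foxa2 (2.68) and Hnf4a (at least 2.03-fold, not well above background in Sp1+/+ cells). So were 1 of 5 pluripotency markers, Esrrb (1.51), and 2 of 9 cardiac and smooth muscle markers, Actc1 (3.15) and Myl7 (2.46). None of these markers was called lower. Some markers of other cell types were thus higher where Cdh1 was higher and Twist1 lower, and their part was not tested. The summed intensity of the 6 endoderm markers was 874 to 1192 in Sp1+/+ and 1836 to 2161 in Sp1-/- Flk1+ cells, and that of the 5 pluripotency markers was 1801 to 2617 and 3113 to 3839.

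In HE1, where Cdh2 was higher without Sp1 DNA binding, 4 of the 9 cardiac and smooth muscle markers were called higher, namely Actc1 (3.23), Myl4 (1.88), Tnnt2 (1.43) and Myl7 (1.18), and their summed intensity was 255818 to 409813 in Sp1-/- against 209960 to 318403 in Sp1+/+ HE1. N-cadherin is also the main cadherin of heart muscle. Whether muscle cells took part in the Cdh2 difference was not tested. In HE2, where Twist1 was lower, the mesenchymal products S100a4 (-2.14) and Mmp2 (-1.68) were called lower among 15.

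Among genes of the TGF-beta pathway, some were lower where Tgfb1 was not called. In Sp1-/- progenitors 4 of 17 were called lower and 1 higher (median -0.38). The ligand Tgfb2 (-3.41) and the co-receptor Eng (-1.76) were among those lower, and Tgfbi (1.30), a TGF-beta induced matrix gene, was the one called higher. Tgfb2 was already lower in Sp1-/- Flk1+ cells (-1.25 ± 0.28, adjusted p = 0.0224), while Tgfb1 was not called in any population. Of 11 further transcription factors known from the epithelial-mesenchymal transition, Hmga2 (-2.60), Prrx2 (-1.74) and Klf8 (-1.23) were lower in Sp1-/- progenitors and 8 were not called (median -0.31). Of the 4 Id genes, whose products block basic helix-loop-helix factors, Id3 (-1.67) and Id1 (-1.18) were lower. Of 8 endothelial markers Esam (-2.67) and Cdh5 (-2.40) were lower (median -1.06), and of 9 hematopoietic markers Gfi1 (-1.94) and Kit (-1.23) were lower and Ptprc (1.28) higher (median 0.14). None of 6 endoderm and 5 pluripotency markers was called (limma), with Sox17 (-2.05, unadjusted p = 0.0258) and Esrrb (-0.50, unadjusted p = 0.00694) at an unadjusted p under 0.05.

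The third question was whether the 10 genes change differently over the endothelial to hematopoietic transition in the 2 genotypes. From HE1 to HE2, 5 of the 10 genes were called lower in Sp1+/+ cells and 6 in Sp1-/- cells, with a background of 2.23% and 3.52% of all genes. From HE2 to progenitors none was called in Sp1+/+ cells (limma, with 3 at an unadjusted p under 0.05), while Snai1, Vim and Cdh2 were called lower in Sp1-/- cells, with a background of 0.727% and 2.67%. When the 75th percentile division was used, Snai2 (-3.57), Twist1 (-2.47) and Twist2 (-2.12) were called lower in Sp1-/- cells over this step as well. With offset 16, Snai2 (-2.19) and Twist1 (-1.35) were also called lower over it. From Flk1+ cells to HE1 the Sp1-/- cells had 3 genes called, Snai1 lower and Vim and Twist2 higher, with 4.88% of all genes lower and 4.61% higher. Over the whole span from HE1 to progenitors, 7 of the 10 genes were called lower in Sp1-/- cells against a background of 6.51%, and Tgfb1 was called higher (2.42-fold) against a background of 5.2%. The median difference of the 10 genes over that span was -2.83 in Sp1-/- cells.

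**Figure D4:**
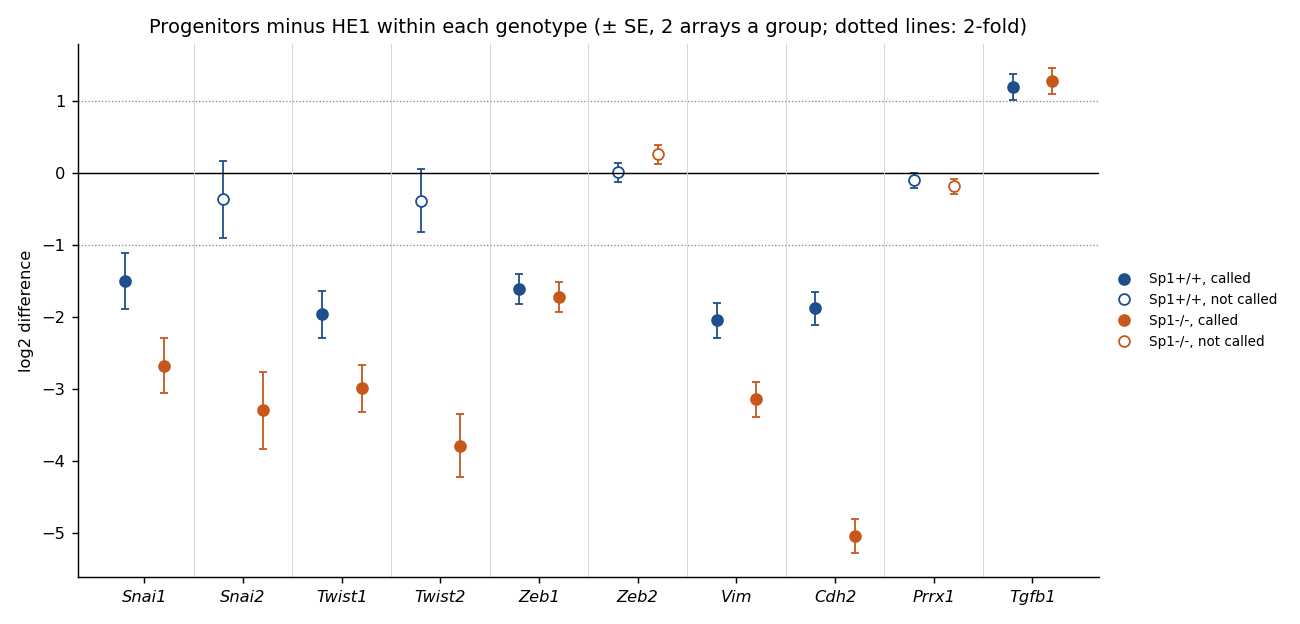
log2 difference progenitors minus HE1 (vertical axis) of each of the 10 genes (horizontal axis) in Sp1+/+ and Sp1-/- cells, as points with the SE of the fit as bars, from 2 arrays a group. Filled points were called and dotted lines mark a 2-fold change. Cdh2 is at -1.88 in Sp1+/+ and -5.04 in Sp1-/- cells, Snai2 at -0.36 and -3.29, and Tgfb1 above 1 in both.

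Cdh2 fell 32.9-fold from HE1 to progenitors in Sp1-/- cells (-5.04 ± 0.23, adjusted p = 1.14e-07) and 3.68-fold in Sp1+/+ cells. Twist2 fell 13.8-fold (-3.78 ± 0.44, adjusted p = 5.02e-05) in Sp1-/- cells, and in Sp1+/+ cells its difference of -0.39 was not called. Snai2 fell 9.82-fold in Sp1-/- cells (-3.29 ± 0.54, adjusted p = 0.000594) with -0.36 in Sp1+/+ cells, and Vim fell 8.85-fold (adjusted p = 2.62e-06). On the deposited values Snai1 and Twist1 fell 6.39-fold and 7.94-fold in Sp1-/- cells (-2.67 and -2.99). With the 75th percentile division the falls were -4.15 for Snai1, -5.31 for Twist1, -5.64 for Snai2 and -5.72 for Twist2, so the folds of these dim genes depend on the treatment of low intensities, and 1 of the 2 Twist1 arrays of Sp1-/- progenitors was not well above background. Zeb1 fell 3.05-fold in Sp1+/+ and 3.29-fold in Sp1-/- cells, and these falls differed by -0.11 ± 0.29 on the log2 scale.

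The difference between the genotypes over this span was then tested directly, as the Sp1 effect in progenitors minus that in HE1, a comparison that was added after the data had been seen. It was called for 4 of the 10 genes, all lower, with 1.89% of all genes called lower. The values were -3.16 ± 0.33 for Cdh2 (adjusted p = 0.001), -3.39 ± 0.62 for Twist2 (adjusted p = 0.0144), -2.93 ± 0.76 for Snai2 (adjusted p = 0.0678) and -1.10 ± 0.34 for Vim (adjusted p = 0.131). Twist1 (-1.02, unadjusted p = 0.0473) and Snai1 (-1.18, unadjusted p = 0.0537) were not called on the deposited values. Division of the processed signal by the 75th percentile gave -2.94 for Twist1 (adjusted p = 0.0177) and -2.46 for Snai1 (adjusted p = 0.0485), both called, and Twist1 was also called with offset 16 (-1.70, unadjusted p = 0.00675) and with the replicate number as a block (unadjusted p = 0.00935). In these last 2 settings Vim was not called (unadjusted p = 0.0101 and 0.0107), so the count of 4 held with Twist1 in its place. Zeb1 (-0.11), Zeb2 (0.25), Prrx1 (-0.08) and Tgfb1 (0.08) had differences close to 0. The call of Snai2 ended without the first Sp1+/+ progenitor array (-2.48, unadjusted p = 0.0139), the second Sp1+/+ HE1 array (-2.46, unadjusted p = 0.0140) or the first Sp1-/- HE1 array (-2.45, unadjusted p = 0.0132), and that of Vim ended in 11 of the 16 fits without an array, its difference being -0.79 without the first Sp1+/+ progenitor array. These effects share the HE1 and progenitor arrays with the comparisons above and are not separate evidence. The shift was not particular to the 10 genes, whose median in this comparison was -1.06. Of 9 cardiac and smooth muscle markers 6 were called lower and none higher (median -2.29). Of 15 mesenchymal products 7 were called lower and none higher (median -1.185). Of 9 hematopoietic markers 1 was called lower and 1 higher. The part of such cells in the falls of the 10 genes was not tested.

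Twist2 also took another course at the start, rising in Sp1-/- cells from 8.74 and 8.85 in Flk1+ cells to 10.56 and 9.84 in HE1 (2.65-fold, 1.41 ± 0.44, adjusted p = 0.0323), where in Sp1+/+ cells the difference was -0.91 (adjusted p = 0.178). Its rise lost the call in 7 of the 16 fits without an array, with the largest loss without the first Sp1-/- HE1 array (1.04, unadjusted p = 0.0729), and with each of the 3 other treatments of the scanner values (unadjusted p from 0.0104 to 0.0235). Snai1 fell 18.3-fold over the same step in Sp1-/- cells and 7.04-fold in Sp1+/+ cells, and the difference between these falls was -1.38 ± 0.54 (adjusted p = 0.308). Vim rose 6.92-fold in Sp1-/- and 6.59-fold in Sp1+/+ cells over it. In Sp1-/- cells the falls of Snai1 between HE1 and HE2 (-1.33) and between HE2 and progenitors (-1.34) each lost their call without single arrays. For the first step the difference was -0.83 without the first HE1 array and -0.91 without the second HE2 array, and for the second step it was -0.92 without the first HE2 array and -1.26 and -1.42 without either progenitor array.

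As a description of the patterns, the genes with a symbol whose 8 group means correlated best with each member were looked up across all genes. For Snai1 these were Gpc6, Nectin1 and Cavin4 (Pearson r 0.998 to 0.992), for Snai2 Plxdc2, Dlk1 and Alpk2 (0.977 to 0.964), for Twist1 Mxra8, Sntb2 and P4ha2 (0.989 to 0.985), and for Twist2 Col6a1, Rbm4b and Foxf2 (0.962 to 0.960). For Vim they were Pdia5, Mmrn2 and Palld (0.992 to 0.989), for Cdh2 Fjx1, Meg3 and Mpnd (0.994 to 0.993), and for Tgfb1 Muc13, Evi2a and Enpp1 (0.996 to 0.992). Zeb1 was most like Hip1r, Trim63 and Ctsh (0.993 to 0.985) and Zeb2 most like Cd9, Mtm1 and C3ar1 (0.979 to 0.974). None of the 10 genes was among the 3 genes most like another of them. The points are 8 means that share arrays and scaling.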

How the data were processed

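RNA of 16 samples was hybridised to one-color Agilent arrays read with Feature Extraction 10.7.1.1, per the labels. The deposited log2 values are the authors' background-corrected and quantile-normalised values from limma. Recomputed from the deposited scanner median intensity, they matched normexp with offset 50 (largest difference 0.0258) and not the stated offset 16 (1.63), so fold changes of dim genes are compressed. Target accessions were matched to RefSeq (GRCm38.p6), which named 20865 of 37932 targets by accession. Probes with a log2 value of 6 or more on at least 1 array were kept (55595 of 55681), and the brightest probe stood for a gene. R 4.3.3 and limma 3.58.1 (lmFit, eBayes) fitted 8 groups together on 37149 genes. Two-sided p-values were adjusted by Benjamini-Hochberg over all genes, and the script was tested on simulated data. Samples were grouped by the labels, and the number of arrays limits the precision. The 10 genes were named by list, with all reported. From each further list at most 4 called genes with the largest change were named, beside the sort genes, Sp1 and the 3 genes most like each member. The genes and lists were chosen with earlier results of these data known. The test of the Sp1 effect in progenitors against that in HE1 was added after the data had been seen, and Sox17 and Esrrb in progenitors were named after their values were seen. Alternatives were offset 16, no background correction, the 75th percentile scaling, other probe filters, the mean over probes, other thresholds, the replicate number as a block, only the arrays compared, and each array left out. Replicate numbers paired the samples in part at most: deviations of same-numbered arrays correlated at -0.174 to 0.503 over 28 pairs of groups (median 0.038). The highest value was between Sp1+/+ HE1 and HE2, and 11 pairs were over 0.1. The main fit has no term for such pairing.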

Additional observations from a re-analysis of the deposited data

Results flagged for a closer look

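The effect of Sp1 on some of the genes differed between populations by a test of the difference itself, in which the Sp1 effect (Sp1-/- minus Sp1+/+, log2) in one population was subtracted from that in a later one. For Cdh2 the effect in HE2 minus that in HE1 was -1.305 (unadjusted p = 0.00216, adjusted p = 0.295), that in progenitors minus HE2 was -1.855 (adjusted p = 0.0327), and that in progenitors minus HE1 was -3.16 (adjusted p = 0.001). The first of these lost its call without the first Sp1+/+ HE1 array (-1.045) or the second Sp1+/+ HE2 array (-1.16). For Twist2 the effect in HE1 minus that in Flk1+ cells was 2.315 (unadjusted p = 0.00326, adjusted p = 0.124) and that in progenitors minus HE1 was -3.395 (adjusted p = 0.0144). The former lost its call without the second Sp1+/+ HE1 array (1.815), the second Sp1+/+ Flk1+ array (2.005), the first Sp1-/- HE1 array (1.955) or the first Sp1-/- Flk1+ array (2.26). Between HE1 and progenitors the difference was -2.93 for Snai2 (adjusted p = 0.0678) and -1.1 for Vim (adjusted p = 0.131). The tests from HE1 to progenitors use the same arrays as those of the single steps.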

How the results depend on the processing

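No called change of the 10 genes reversed under any alternative. The counts of the 10 genes called that moved by over 1.5 times were as follows. In a fit of only the arrays compared, the Sp1 effect was called for 2 genes in place of 1 in Flk1+ cells and for 1 in place of 2 in HE1. With the 75th percentile scaling, counts became 1 for the Sp1 effect in HE1, 6 in place of 3 from HE2 to progenitors in Sp1-/- cells, 0 in place of 1 for the difference in Sp1 effect between HE1 and Flk1+ cells and 4 in place of 1 between progenitors and HE2. It also gave smaller moves, to 6 in place of 4 between progenitors and HE1, 3 in place of 2 from Flk1+ cells to HE1 and 4 in place of 5 from HE1 to HE2 in Sp1+/+ cells. With offset 16, or with no background correction, 5 genes were called from HE2 to progenitors in Sp1-/- cells and 2 for the difference in Sp1 effect between progenitors and HE2. With an adjusted p of 0.05 or less, counts became 1 for HE1, 0 for the differences between HE1 and Flk1+ cells and between HE2 and HE1, and 2 in place of 4 between progenitors and HE1. With no minimum change, counts became 4 in place of 2 from Flk1+ cells to HE1 and 1 in place of 0 from HE2 to progenitors in Sp1+/+ cells.

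In the replicate block the replicate number was a term, although it paired the samples in part at most (11 of 28 pairs of groups over 0.1). The differences in Sp1 effect were then called for 2 genes each between HE1 and Flk1+ cells, HE2 and HE1, and progenitors and HE2. The Sp1 effect itself was called for 3 in place of 2 genes in HE1 and for 6 in progenitors. Leaving out each array in turn gave 0 to 1 genes called for the Sp1 effect in Flk1+ cells, 0 to 3 in HE1, 1 in HE2 and 5 to 6 in progenitors. The ranges for Sp1+/+ cells were 2 to 3 from Flk1+ cells to HE1, 2 to 5 from HE1 to HE2, 0 to 1 from HE2 to progenitors and 5 to 6 from HE1 to progenitors, and those for Sp1-/- cells were 2 to 3, 5 to 7, 2 to 4 and 8. For the differences in Sp1 effect they were 0 to 2 (HE1 and Flk1+ cells), 1 to 2 (HE2 and HE1), 1 to 3 (progenitors and HE2) and 2 to 5 (progenitors and HE1).

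Under the 75th percentile scaling the median log2 difference of all genes was 0.128 for the Sp1 effect in HE1 against 0.01 on the deposited values, -0.139 against -0.01 from Flk1+ cells to HE1 in Sp1+/+ cells, and 0.109 against -0.005 for the difference in Sp1 effect between HE1 and Flk1+ cells. Prrx1 lay near background, so its lack of a call says little about its level. The cause of these moves was not tested.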
